A study of Zea mays with 6 samples.

Results

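The genes described here are the 51 gene models whose identifiers start with GRMZM, out of 44351 rows in RNA-seq tables from leaves of maize. They were chosen by the identifier alone. GRMZM names belong to an earlier generation of maize gene models, whereas 44146 of the other rows carry the later Zm00001d names. All 51 start with the same 8 characters, GRMZM5G8. Both groups of plants were of the inbred line KN5585. The control group (CK, 3 libraries) was non-transgenic and has the treatment label normal. The other group (T, 3 libraries) carried a transgene, which the series title gives as overexpressed ZmSUS1, a sucrose synthase gene. The sources used here give neither the promoter of the transgene nor how many events were grown. Each sample has a drought time point of 3 days in the labels and of 5 days in the series text, so drought is read as shared by both groups; with the control label normal, a difference in watering and the transgene cannot be told apart.

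As background, GRMZM names were kept in later maize annotations mainly for genes of the plastid and mitochondrial genomes. The plastid genome encodes the large subunit of Rubisco, core subunits of the photosystems and of the ATP synthase, and part of the plastid's own ribosomes and RNA polymerase. The mitochondrial genome encodes subunits of the respiratory chain. Most organelle transcripts of plants lack the long, stable poly(A) tail of nuclear mRNA, and libraries built for mRNA usually hold little of them. The RefSeq table used here (assembly: Zm-B73-REFERENCE-NAM-5.0) lists 158 plastid and 214 mitochondrial genes, and GRMZM names among the synonyms of 18526 genes. It matched 0 of the 51 identifiers, and 0 of its organelle genes have a GRMZM synonym. The location and the product of each of the 51 were therefore not analysed here, and the genes are named by identifier, with no role.

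Values are FPKM, fragment numbers relative to the length of the gene and to all mapped fragments in its library, so levels can be compared between genes per length. The files give no fragment numbers, and the depth of each library is unknown. Total FPKM ranged from 684047 to 689548 in CK and from 829541 to 831082 in T. Over the 22944 genes that average at least 0.5 FPKM, the correlation between libraries on the log2(FPKM + 1) scale was 0.990 to 0.992 within groups and 0.874 to 0.876 between groups. Most genes were lower in T as deposited: over all tested genes the log2 difference had a median of -0.56. Median-of-ratios scaling, which divides each library by the median ratio of its genes to their geometric mean, removes that shift and left a median of -0.02. The size factors were 1.26 to 1.27 in CK and 0.786 to 0.793 in T. Tests are given on both scales. The series text calls the libraries biological replicates without naming separate plants, so the spread behind each p-value is that between these libraries and may be technical.

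The GRMZM genes were mostly low, but by these measures no more so than the tables as a whole. Their median level was 0.532 FPKM, close to the 0.623 FPKM of all 44351 rows. An average of at least 0.5 FPKM was reached by 51.7% of all rows and by 26 of the 51, a similar share. The highest of them, GRMZM5G815553, ranked 6709 among all rows and GRMZM5G815453 ranked 8328, whereas the highest row of the tables averaged 12146 FPKM. Only 2 of the genes averaged at least 10 FPKM and 4 at least 5 FPKM. A further 8 averaged 2 to 5 FPKM, 14 averaged 0.5 to 2 FPKM and 25 were below 0.5 FPKM. Few were silent: 2 of the 51 (3.92%) were listed at 0 in every library, against 23.6% of all rows. Of the remaining genes, 34 were above 0 in every library and 15 in some libraries.

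GRMZM5G815553 had the highest mean level of the set. Its values were 15.3, 17.6 and 19.4 FPKM in CK and 16.3, 14.7 and 16.1 FPKM in T. The groups overlapped, and the log2 difference of -0.14 ± 0.08 (SE) did not pass the test as deposited (limma adjusted p = 0.15). After median-of-ratios scaling the values were 12.1, 14.0 and 15.3 in CK and 20.8, 18.5 and 20.4 in T. On that scale every transgenic library lay above every control library, and the gene was called higher, with a log2 difference of 0.51 ± 0.08 (SE, limma adjusted p = 0.00061). It was called lower, at -0.23, without control replicate 1 (limma adjusted p = 0.018) and, at -0.40, with totals of FPKM made equal (limma adjusted p = 0.0016). The direction given for this gene is thus a matter of the scaling.

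GRMZM5G815453 stood level with it in CK and lower in T. Its values were 18.0, 16.7 and 17.0 FPKM in CK and 6.83, 11.4 and 6.79 FPKM in T. The groups did not overlap, and the transgenic replicate 2 lay well above the other two. The gene fell by 1.00 ± 0.16 in log2(FPKM + 1) (SE, limma adjusted p = 0.00043), 2.07-fold between 17.2 ± 0.65 and 8.33 ± 2.63 FPKM (SD, n = 3 each). After median-of-ratios scaling transgenic replicate 2, at 14.3, exceeded all control libraries, which lay between 13.2 and 14.2, while the other transgenic libraries were at 8.69 and 8.62. The scaled log2 difference, -0.37 ± 0.16, missed the threshold (limma adjusted p = 0.069). Without transgenic replicate 2 it was -0.60 and was called lower (limma adjusted p = 7.9e-05).

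The ratio of these 2 genes within a library does not depend on the scaling between libraries. GRMZM5G815453 stood at 1.18, 0.947 and 0.876 times the level of GRMZM5G815553 in CK. In the transgenic libraries the ratio was 0.418, 0.773 and 0.422. Every transgenic ratio was below every control ratio, with means of 1.00 ± 0.16 and 0.538 ± 0.204 (SD, n = 3 each). The pair was chosen after its values were seen, and the ratio was given no test.

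**Figure D1:**
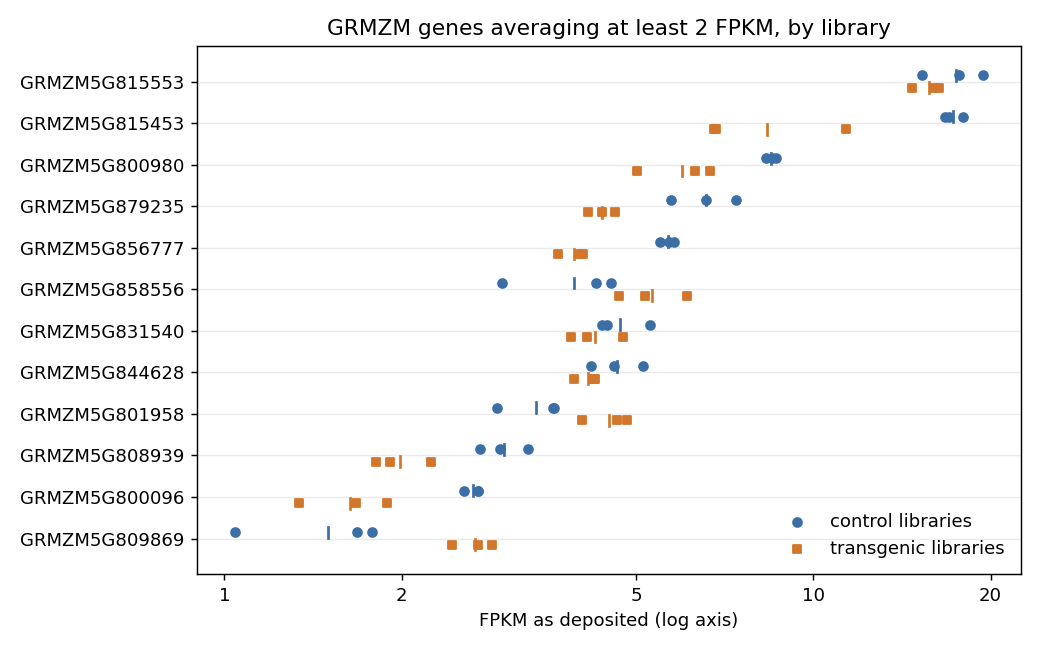
FPKM as deposited (log axis) of the 12 GRMZM genes averaging at least 2 FPKM, with 1 point for each control library (circles) and transgenic library (squares) and short vertical lines for the group means. The groups of GRMZM5G815453 are apart, at 16.7 to 18.0 and 6.79 to 11.4 FPKM, whereas those of GRMZM5G815553 overlap.

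Of the 26 GRMZM genes tested, 4 were higher in T, 11 were lower and 11 did not pass an adjusted p of 0.05 as deposited (limma on log2(FPKM + 1), Benjamini-Hochberg over all tested genes). Of all 22944 tested genes 84.0% were called, 16.3% higher and 67.7% lower. The GRMZM genes were called in 57.7% of cases. Their median log2 difference was -0.17 (-0.30 without control replicate 2), and 22 of the 26 lay above the median of all tested genes. A pseudocount of 1 draws low genes toward 0, and the median of the GRMZM genes was -0.38 with a pseudocount of 0.1. The median of all tested genes was not derived at that pseudocount, so how far the contrast rests on it was not tested. Values of all 6 libraries did not overlap between groups in 14 of the 26, with the transgenic libraries below in 10 and above in 4, where 84.5% of all tested genes did not overlap, 67.9% below and 16.6% above. The spread of the GRMZM genes was wider than that of genes at large: coefficients of variation had a median of 17.5% in CK and of 14.0% in T, against 6.16% and 7.46% over all tested genes. This comparison was not matched for level: 12 of the 26 averaged at least 2 FPKM, against 18092 of the 22944 tested genes. Whether the wider spread goes with level was not tested. Among all tested genes averaging below 20 FPKM, 81.3% were called. That range holds the whole set but does not match its levels within it.

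After median-of-ratios scaling the balance turned. Of the same 26 genes 9 were called higher, 2 lower and 15 were not called, where 73.2% of all tested genes were called, 36.3% higher and 36.9% lower. The median log2 difference of the GRMZM genes was then 0.14. The groups did not overlap in 12 of the 26, with the transgenic libraries above in 10 and below in 2; of all tested genes 76.0% did not overlap, 37.5% above and 38.4% below. Of the genes averaging below 20 FPKM, again not matched for level, 68.4% were called on this scale. Called the same way on both scales were 6 genes, 4 higher and 2 lower. A further 9 were called lower as deposited only, 5 were called higher after scaling only, and 6 were called on neither scale. Such joint counts were not made over all tested genes, so they are not read as particular to the set.

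**Figure D2:**
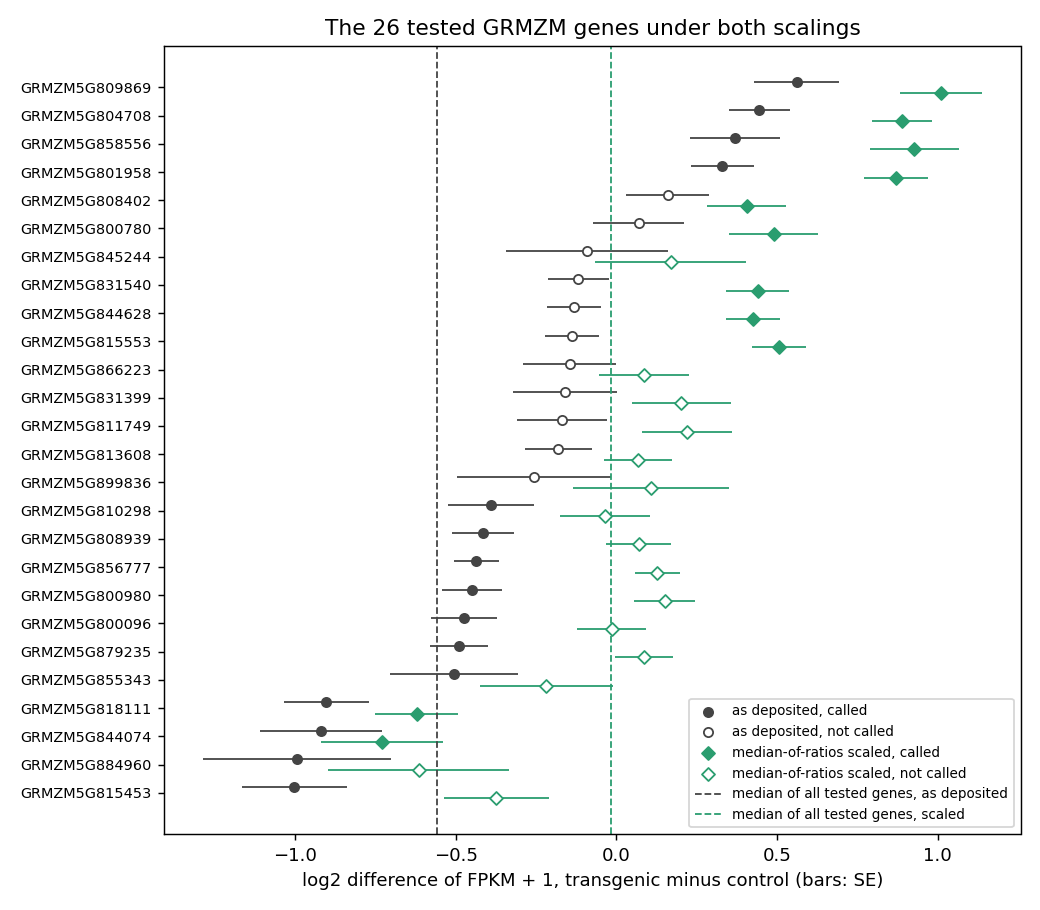
Log2 differences (transgenic minus control, of FPKM + 1) of the 26 tested GRMZM genes as deposited (circles) and after median-of-ratios scaling (diamonds), with SE bars and filled symbols for an adjusted p below 0.05. Dashed lines mark the medians of all tested genes, -0.56 and -0.02. Above their line lie 22 and 20 of the 26. The scale draws low genes toward 0, and 19 of the 26 scaled differences were above 0.

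The 4 genes called higher on both scales were of low to moderate level. GRMZM5G809869 had the largest rise: its values were 1.68, 1.78 and 1.04 FPKM in CK and 2.70, 2.85 and 2.43 FPKM in T. Every transgenic library lay above every control library, and the gene rose 1.77-fold, with a log2 difference of 0.56 ± 0.13 (SE, limma adjusted p = 0.0038); after scaling it was 1.01 (limma adjusted p = 0.00011). GRMZM5G804708 stood at 1.54, 1.29 and 1.62 FPKM in CK and at 2.50, 2.39 and 2.24 FPKM in T. Its groups were also apart; it rose 1.60-fold, with a log2 difference of 0.44 ± 0.09 (SE, limma adjusted p = 0.0021); after scaling it was 0.89 (limma adjusted p = 3.7e-05). These 2 genes were also called higher with totals of FPKM made equal, at 0.38 and 0.27 (limma adjusted p = 0.028 and 0.026).

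GRMZM5G801958 and GRMZM5G858556 were the other two. The values of GRMZM5G801958 were 3.62, 3.63 and 2.90 FPKM in CK and 4.83, 4.64 and 4.04 FPKM in T. Its log2 difference was 0.33 ± 0.10 (SE, limma adjusted p = 0.013) and 0.87 after scaling (limma adjusted p = 6.2e-05), and its groups did not overlap. GRMZM5G858556 stood at 4.27, 4.53 and 2.96 FPKM in CK and at 4.68, 5.18 and 6.10 FPKM in T. The groups were separated by a narrow gap, between 4.53 and 4.68 FPKM. The log2 difference of GRMZM5G858556 was 0.37 ± 0.14 as deposited (SE, limma adjusted p = 0.036) and 0.93 after scaling (limma adjusted p = 0.00034). Its call as deposited was lost without control replicate 3, where the difference was 0.22, and without transgenic replicate 2 or transgenic replicate 3 (limma adjusted p = 0.10, 0.071 and 0.12), and with the replicate number as a block (limma adjusted p = 0.063). The call of GRMZM5G858556 was also lost with no intensity trend in the fit (limma adjusted p = 0.054) and with no minimum FPKM (limma adjusted p = 0.073). With the same total FPKM neither of these 2 genes was called, at log2 differences of 0.11 and 0.14.

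GRMZM5G818111 and GRMZM5G844074 were called lower on both scales. GRMZM5G818111 stood at 1.92, 1.21 and 1.29 FPKM in CK and at 0.35, 0.29 and 0.30 FPKM in T. It fell 4.70-fold in mean FPKM, a log2(FPKM + 1) difference of -0.90 ± 0.13 (SE, limma adjusted p = 0.00022); after scaling it was -0.62 (limma adjusted p = 0.0023). The difference was -1.90 with a pseudocount of 0.1, since a pseudocount of 1 compresses levels this low.

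The values of GRMZM5G844074 were 1.49, 1.19 and 0.60 FPKM in CK and 0, 0 and 0.29 FPKM in T. Its log2(FPKM + 1) difference was -0.92 ± 0.19 (SE, limma adjusted p = 0.0018), and -0.73 after scaling (limma adjusted p = 0.0080). The groups did not overlap, and 2 of 3 transgenic libraries were at 0. Its values lay near whole multiples of 0.299 FPKM, namely 5, 4 and 2 times in CK and 0, 0 and 1 times in T. If that step were 1 fragment, the call would rest on that many fragments.

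Such steps were searched for in the 39 GRMZM genes with at least 3 distinct values above 0. In 6 of them every value lay within 3% plus 0.005 FPKM of a whole multiple of a common step, with a highest multiple of 4 to 6. The remaining 5 were GRMZM5G855343, GRMZM5G804776, GRMZM5G830210, GRMZM5G853305 and GRMZM5G877173. A step may stand for more than 1 fragment, and how often such matches arise by chance was not tested.

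The 9 genes called lower as deposited but not after scaling included GRMZM5G815453 and 3 others of the 8 most abundant members. GRMZM5G800980 stood at 8.32, 8.64 and 8.51 FPKM in CK and at 5.01, 6.67 and 6.29 FPKM in T, a log2 difference of -0.45 ± 0.09 (SE, limma adjusted p = 0.0019). GRMZM5G879235 stood at 6.57, 7.38 and 5.74 FPKM in CK and at 4.37, 4.60 and 4.14 FPKM in T, a log2 difference of -0.49 ± 0.09 (SE, limma adjusted p = 0.0010). GRMZM5G856777 stood at 5.81, 5.68 and 5.48 FPKM in CK and at 3.68, 4.02 and 4.07 FPKM in T, a log2 difference of -0.44 ± 0.07 (SE, limma adjusted p = 0.00038). The groups of all 3 were apart as deposited. After scaling their log2 differences were 0.15, 0.09 and 0.13, and none was called (limma adjusted p = 0.18, 0.42 and 0.13). The scaled groups of GRMZM5G800980 and GRMZM5G879235 overlapped. Those of GRMZM5G856777 were apart the other way, at 4.59, 4.49 and 4.31 in CK and 4.68, 5.07 and 5.17 in T. Without transgenic replicate 1 the scaled difference of GRMZM5G800980 was 0.26 and was called higher (limma adjusted p = 0.0098).

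GRMZM5G808939 and GRMZM5G800096 gave similar differences at lower levels. The former averaged 2.98 ± 0.28 FPKM in CK and 1.99 ± 0.22 FPKM in T, and the latter 2.65 ± 0.08 and 1.63 ± 0.28 FPKM (SD, n = 3 each). Neither overlapped between groups as deposited, with log2 differences of -0.41 and -0.47 (limma adjusted p = 0.0038 and 0.0023), and both were within 0.1 of 0 after scaling. GRMZM5G810298, at 1.22, 1.60 and 1.46 FPKM in CK and 0.62, 0.80 and 1.16 FPKM in T, had a log2 difference of -0.39 (limma adjusted p = 0.023).

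In GRMZM5G884960 and GRMZM5G855343 the groups overlapped although both were called lower. GRMZM5G884960 stood at 3.47, 1.10 and 3.34 FPKM in CK and at 1.13, 0.72 and 0.41 FPKM in T, with control replicate 2 below transgenic replicate 1. Its log2 difference was -0.99 ± 0.29 as deposited (SE, limma adjusted p = 0.012) and -0.61 after scaling (limma adjusted p = 0.079). Without control replicate 2 the scaled difference was -0.94 and was called lower (limma adjusted p = 0.0044). GRMZM5G855343 stood at 1.39, 1.40 and 0.70 FPKM in CK and at 0.23, 0.91 and 0.45 FPKM in T, and its log2 difference of -0.51 had a limma adjusted p of 0.042. This call was lost with no intensity trend in the fit (limma adjusted p = 0.056) and with no minimum FPKM (limma adjusted p = 0.071). Calls as deposited were lost when single libraries were left out for GRMZM5G855343 (without control replicate 1 or 2, or transgenic replicate 1 or 3; limma adjusted p = 0.10 to 0.14) and for GRMZM5G810298 (without control replicate 2 or 3, or transgenic replicate 1 or 2; limma adjusted p = 0.057 to 0.081).

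Besides GRMZM5G815553, the genes called higher after scaling only were GRMZM5G831540, GRMZM5G844628, GRMZM5G800780 and GRMZM5G808402. GRMZM5G831540 averaged 4.70 ± 0.49 FPKM in CK and 4.25 ± 0.45 FPKM in T as deposited, and GRMZM5G844628 averaged 4.64 ± 0.47 and 4.14 ± 0.19 FPKM (SD, n = 3 each). The groups of both overlapped as deposited and were apart after scaling, when the log2 differences were 0.44 and 0.42 (limma adjusted p = 0.0034 and 0.0017). With the same total FPKM both were called lower, at -0.34 and -0.36 (limma adjusted p = 0.0084 and 0.0038). GRMZM5G800780 and GRMZM5G808402 averaged 1.57 and 0.490 FPKM in CK and 1.69 and 0.657 FPKM in T, and their scaled log2 differences were 0.49 and 0.41 (limma adjusted p = 0.012 and 0.016). The call of GRMZM5G808402 was lost without control replicate 2 (limma adjusted p = 0.053).

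The 6 genes called on neither scale averaged 0.532 to 1.34 FPKM. They were GRMZM5G811749, GRMZM5G899836, GRMZM5G831399, GRMZM5G845244, GRMZM5G813608 and GRMZM5G866223. GRMZM5G813608 was the only one of them whose groups did not overlap, at 0.66, 0.71 and 0.66 FPKM in CK and 0.48, 0.43 and 0.53 FPKM in T, yet its log2 difference of -0.18 ± 0.10 did not pass (SE, limma adjusted p = 0.13). GRMZM5G813608 was called lower with no intensity trend in the fit (limma adjusted p = 0.0097). With the same total FPKM it was also called lower, at -0.28 (limma adjusted p = 0.030). GRMZM5G831399 was called lower as deposited without control replicate 2, at -0.33 (limma adjusted p = 0.042). In GRMZM5G845244 control replicate 1 stood at 1.57 FPKM, whereas the other control libraries were at 0.31 and 0.47 FPKM and the transgenic libraries at 0.46, 0.92 and 0.46 FPKM.

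The 25 genes below the minimum of 0.5 FPKM averaged at most 0.442 FPKM. In 22 of them the groups overlapped as deposited. Of the 23 that were above 0 in some library 3 did not overlap, where 22.4% of all 10932 rows of this kind did not. They were GRMZM5G806488 and GRMZM5G894515, with the transgenic libraries above, and GRMZM5G835775, with the transgenic libraries below; they are named for this reason, after their values were seen. After median-of-ratios scaling 6 did not overlap, 5 with the transgenic libraries above and 1 below, against 21.7% of such rows; the added ones were GRMZM5G804776, GRMZM5G853723 and GRMZM5G866064. GRMZM5G835775 stood at 0.44 FPKM in each CK library and at 0, 0 and 0.22 FPKM in T. With only 0.44 and 0.22 FPKM as values above 0, it was not among the genes searched for steps. A test of this gene may rest on very few fragments. With no minimum, 49 of the 51 genes could be tested, and GRMZM5G835775 was the only one of these low genes to pass, at a log2 difference of -0.43 (limma adjusted p = 0.0040). In that test 61.7% of all 33876 genes passed, and 18.8% of those averaging below 0.5 FPKM. GRMZM5G801074 was listed at 2.20 FPKM in control replicate 1 and at 0 in the other 5 libraries. In all, 6 genes were above 0 only in control libraries and 1 only in a transgenic library. The share of all rows above 0 in 1 group only was not derived. More rows were above 0 in each CK library (29229 to 29376) than in each T library (28298 to 28311). The values of 4 genes, each above 0 in 1 library only, were the same in all 6 libraries as those of 12 to 17 other rows of the tables, at no more than 0.24 FPKM.

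Summed over the 51 genes, the level was 107.4, 99.5 and 98.6 FPKM in CK and 76.9, 81.9 and 80.4 FPKM in T. Every transgenic sum was below every control sum, at 79.7 ± 2.5 against 101.9 ± 4.9 FPKM (SD, n = 3 each), a ratio of 0.783. As a share of total FPKM the set held 0.0149% ± 0.0008 of CK and 0.00960% ± 0.00031 of T, a ratio of 0.647. After median-of-ratios scaling the order turned: the sums were 84.9, 78.7 and 77.5 in CK and 97.9, 103.2 and 102.0 in T, a ratio of 1.26. The summed level therefore has no direction apart from the scaling chosen. No test was made of these sums.

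**Figure D3:**
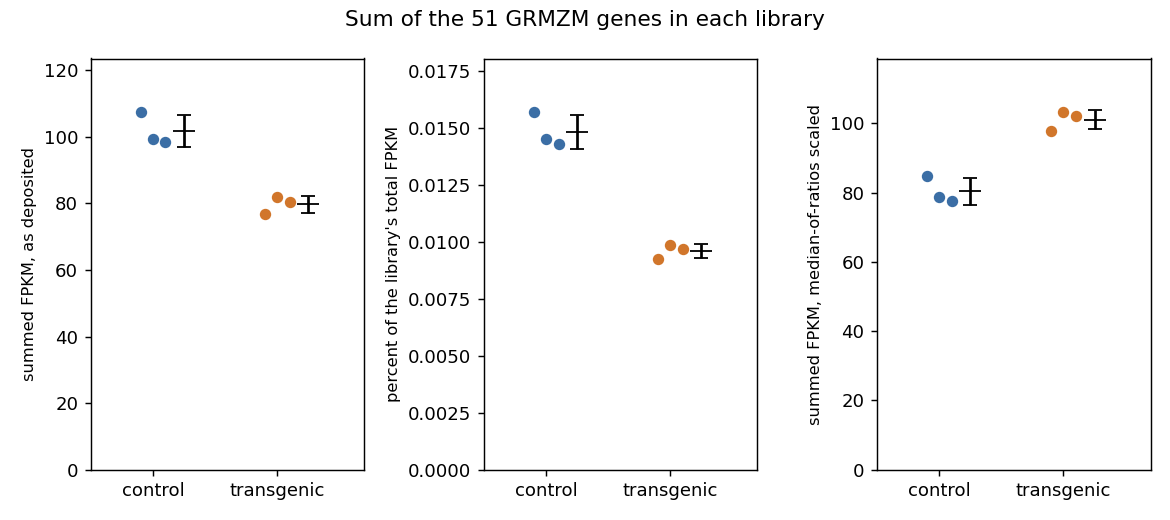
Sum of the 51 GRMZM genes in each library (points) with the mean and SD of each group (black), as deposited FPKM, as a percentage of the library's total FPKM and after median-of-ratios scaling; each axis starts at 0. The transgenic libraries lie below the control libraries in the first and second panels and above them in the third.

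Within the set, the make-up also differed between the groups, and these shares of the summed FPKM do not depend on the scaling. GRMZM5G815453 held 16.7%, 16.8% and 17.3% of the sum in CK and 8.88%, 13.9% and 8.45% in T. GRMZM5G858556 held 3.84% ± 0.78 in CK and 6.67% ± 0.81 in T, and GRMZM5G801958 3.32% ± 0.36 and 5.66% ± 0.63 (SD, n = 3 each). GRMZM5G809869 and GRMZM5G804708 went from 1.47% ± 0.38 and 1.46% ± 0.17 to 3.34% ± 0.27 and 2.98% ± 0.24 (SD, n = 3 each). The share of GRMZM5G815553, the most abundant, was 17.2% ± 2.8 in CK and 19.7% ± 1.7 in T, and overlapped between the groups. The shares of 12 of the 26 tested genes did not overlap, 6 above and 6 below in T. Set against the same sum, 77.3% of all tested genes did not overlap, 24.5% above and 52.8% below, so separation as such is not peculiar to the set. A larger share of one gene lowers those of the others, and the largest single shift was the lower share of GRMZM5G815453.

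**Figure D4:**
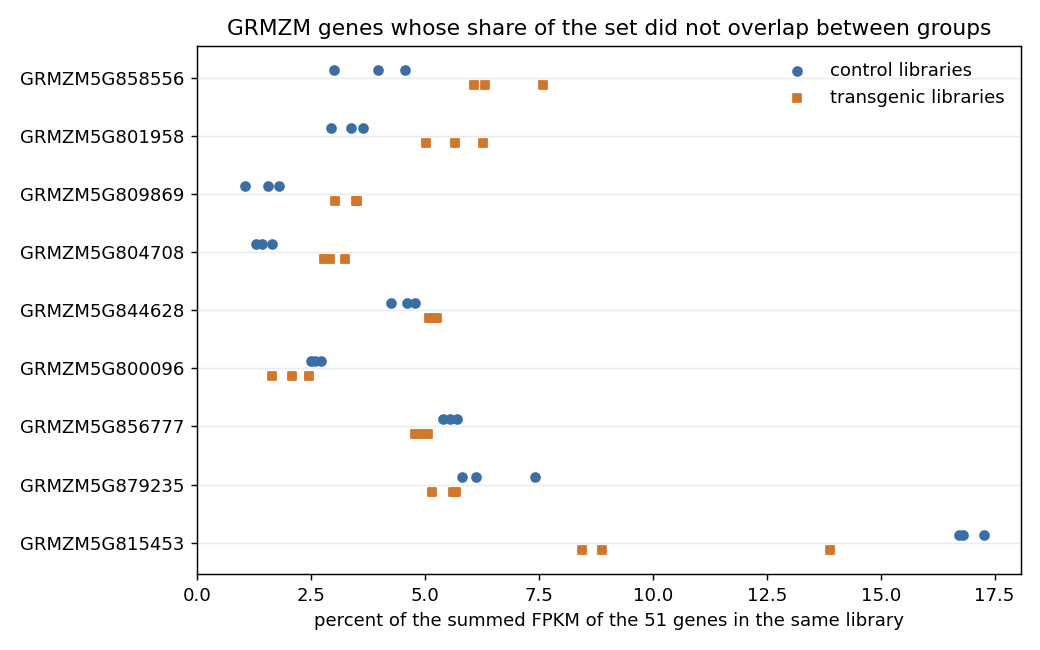
Percentage of the summed FPKM of the 51 GRMZM genes held by each of 9 genes whose shares did not overlap between groups and whose mean shares in the 2 groups add up to at least 2%, in each control (circles) and transgenic (squares) library. The share of GRMZM5G815453 is 16.7% to 17.3% in the control and 8.45% to 13.9% in the transgenic libraries.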

How the data were processed

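RNA-seq was made from leaves of 3 control and 3 transgenic samples, with a SMARTER mRNA-Seq kit per the labels' protocols. The sources used here do not state the strandedness, the aligner, the counting program or the maize build. Per the file headers, the deposited values are FPKM, which the authors rounded to 2 decimals, in 1 table for each library. DESeq2 and mm10, a mouse build, appear without a role in the submitters' processing notes.

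Genes averaging at least 0.5 FPKM over the 6 libraries were tested with limma 3.58.1 (R 4.3.3) on log2(FPKM + 1), with group as the only term, an intensity trend and two-sided tests, adjusted by Benjamini-Hochberg over all 22944 genes. "Called" means an adjusted p below 0.05. Fold changes on this scale understate changes of low genes. FPKM holds no fragment numbers, so no counting interval was computed. Median-of-ratios factors came from the 24566 genes above 0 in every library, and the same 22944 genes were tested after scaling. Same-numbered libraries deviated together at correlations of 0.002, -0.05 and 0.002, and no label ties them, so no pairing was used. Alternatives tried were another scaling, pseudocount, minimum, variance model or threshold, the replicate block and leaving out each library. Named genes were the 8 most abundant, GRMZM5G815453, the 6 largest rises and falls among called genes, and those whose call or direction depends on the scaling; other genes named, and the ratio of 2 genes, were picked after their values were seen. Membership rests on the identifier, but the set was proposed, and the lists, named genes and tests chosen, with earlier results of these data known. Python 3.11.15, pandas 2.3.3 and matplotlib 3.10.9 were used for tables and figures.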

Additional observations from a re-analysis of the deposited data

How the results depend on the processing

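As deposited 15 of the GRMZM genes were called, 4 higher and 11 lower. On the median-of-ratios scale there were 9 higher and 2 lower genes, and with the same total FPKM 2 were higher and 15 lower (88.2% of all genes called). At an adjusted p of 0.01, 2 were higher and 8 lower (76.8% of all genes). With a minimum of 2 FPKM, 9 of the 12 genes then tested were called, 6 of them lower (89.2% of all genes). With no minimum, 3 were higher and 12 lower of the 49 genes then tested (61.7% of all genes). With no intensity trend, 3 were higher and 11 lower (83.5% of all genes). The calls of GRMZM5G858556 and GRMZM5G855343 were lost in both of these settings. With the replicate block, 14 were called, 3 higher and 11 lower (83.6% of all genes). No label ties same-numbered libraries, and the lost call is that of GRMZM5G858556. The median log2 difference, -0.17, was 0.14 with median-of-ratios scaling, -0.38 with the same total FPKM, -0.38 with a pseudocount of 0.1, -0.28 with a minimum of 2 FPKM and -0.17 with the replicate block. The summed level, at a ratio of 0.783, was 1.26 with median-of-ratios scaling and 0.647 with the same total FPKM, by construction of these scalings. With single libraries left out, 13 to 15 genes were called, 3 to 4 higher and 9 to 11 lower (81.5% to 82.0% of all genes); the median was -0.30 to -0.18 (-0.30 without control replicate 2) and the summed ratio 0.771 to 0.805. The sign turned with median-of-ratios scaling for 13 genes: to 0.51, 0.44 and 0.42 in GRMZM5G815553, GRMZM5G831540 and GRMZM5G844628, then called; to 0.15, 0.086, 0.13 and 0.069 in GRMZM5G800980, GRMZM5G879235, GRMZM5G856777 and GRMZM5G808939, which lost the call; and to 0.22, 0.11, 0.20, 0.17, 0.068 and 0.087 in GRMZM5G811749, GRMZM5G899836, GRMZM5G831399, GRMZM5G845244, GRMZM5G813608 and GRMZM5G866223, uncalled on both scales. For GRMZM5G800780 it turned to -0.10 with the same total FPKM, -0.01 without control replicate 3 and -0.024 without transgenic replicate 2, and for GRMZM5G845244 to 0.20 without control replicate 1; both were uncalled as deposited. Of 350 values of single genes under alternatives, 295 had the same direction and the same outcome of the test, 28 were no longer called, 10 became called and 17 turned sign. Leaving out libraries after median-of-ratios scaling was added after the data were seen; it gave 8 to 10 higher and 2 to 3 lower genes. Where no construction is named, the cause was not tested. Depth is unknown, so the number of fragments behind the lowest values was not derived.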
